A study of Homo sapiens with 12 samples.

Results

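The 38 genes described here belong to the response to low oxygen and to the handling of iron, and were taken by name from 29972 gene rows in each of 2 tables. They comprised 4 genes for hypoxia-inducible factor (HIF) subunits and oxygen sensors, 10 HIF targets outside glycolysis, 14 genes of glucose uptake and glycolysis, and 10 genes of iron handling. Polyadenylated RNA was sequenced from MDA-MB-436 and from BoM-1833, 2 human lines of triple-negative breast cancer; BoM-1833 is a bone-seeking derivative of MDA-MB-231. Cells of each line were reverse transfected at a final 5 nM either with a pool of non-targeting siRNAs (siNT) or with 2 siRNAs against PHF19 in equal parts (siPHF19), and were used 72 h later. The labels give 3 libraries for each of the 4 groups, 12 in all, and name no low-oxygen exposure and no iron treatment. PHF19 is a Polycomb-like protein that binds Polycomb repressive complex 2. The siNT pool was bought from another supplier than the siRNAs against PHF19, which were given together, so that effects of one siRNA cannot be told apart from effects of the other. The labels do not say whether the libraries of a group came from separate cultures, so the p-values measure only the spread between these libraries, which may be technical.

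HIF is a pair of an oxygen-regulated alpha subunit, encoded by HIF1A or EPAS1 (HIF-2 alpha), and a constant beta subunit. At normal oxygen the EGLN prolyl hydroxylases, which need iron, mark the alpha subunits for ubiquitination and destruction; at low oxygen or low iron the alpha subunits persist and switch on genes for glucose uptake, glycolysis, pH control, blood vessel growth and mitophagy. Iron enters most cells on transferrin through the transferrin receptor (TFRC) and is released in acidified endosomes, whose proton pump is the V-ATPase. The iron regulatory proteins ACO1 and IREB2 bind stem-loops called iron-responsive elements when iron is scarce, which stabilizes the TFRC mRNA and blocks translation of the ferritin mRNAs FTH1 and FTL.

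The MDA-MB-436 libraries held 15186338 to 24010271 reads in genes and those of BoM-1833 held 13748100 to 21258567, of which the 38 members took 1.86 to 1.95% and 2.09 to 2.26%. PHF19 itself was at 9.75% of its siNT mean in MDA-MB-436 (10.9% in BoM-1833) after siPHF19. The oestrogen and progesterone receptor genes ESR1 and PGR lay at 3.97 normalized counts or lower in every library, as the triple-negative label implies, whereas ERBB2 was read at 932 or more. Among 7 markers of blood, endothelial and liver cells, 6 had group means of 10 or fewer normalized counts in MDA-MB-436 (5 in BoM-1833). The markers tested were PECAM1 in both lines and PTPRC in BoM-1833, and none passed. Values per library are given below as normalized counts, that is reads divided by 1 size factor per library, in the order replicate 1, 2 and 3. Fold changes of siPHF19 over siNT are on the log2 scale with their standard error (SE), and these, with their adjusted p-values, are from the authors' deposited table for each line, made with DESeq2. A gene is said to have risen or fallen only where that adjusted p was under 0.05.

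Of the 38 members, 18 changed in at least 1 line, 4 changed in both and 20 changed in neither. In MDA-MB-436, 12 of 37 members tested changed, 5 rising and 7 falling, against 22.1% of all 14243 genes tested, of which 10.5% rose and 11.5% fell. In BoM-1833, 10 of 38 changed, 6 rising and 4 falling, against 10.9% of all 12906 genes tested, of which 5.21% rose and 5.72% fell. The 38 genes were on average well expressed: the median normalized count of the members tested was 1493 for MDA-MB-436, against 487 over all genes tested, and 2709 for BoM-1833, against 541, and how far this bears on the share that changed was not tested. The members moved in both directions, though values leaned up in MDA-MB-436, with 25 of 37 above 0, and down in BoM-1833, with 13 of 38 above 0. The median log2 fold change of the members was 0.10 for MDA-MB-436 and -0.04 for BoM-1833, beside -0.0022 and -0.0035 over all genes, and the median size was 0.20 and 0.13, beside 0.18 and 0.12. The siNT and siPHF19 libraries did not overlap for 17 members of MDA-MB-436, against 42.2% of all genes tested, and for 19 of BoM-1833, against 31.0%. SLC2A3, at 13.1 normalized counts or fewer in each MDA-MB-436 library, was not tested there.

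**Figure D1:**
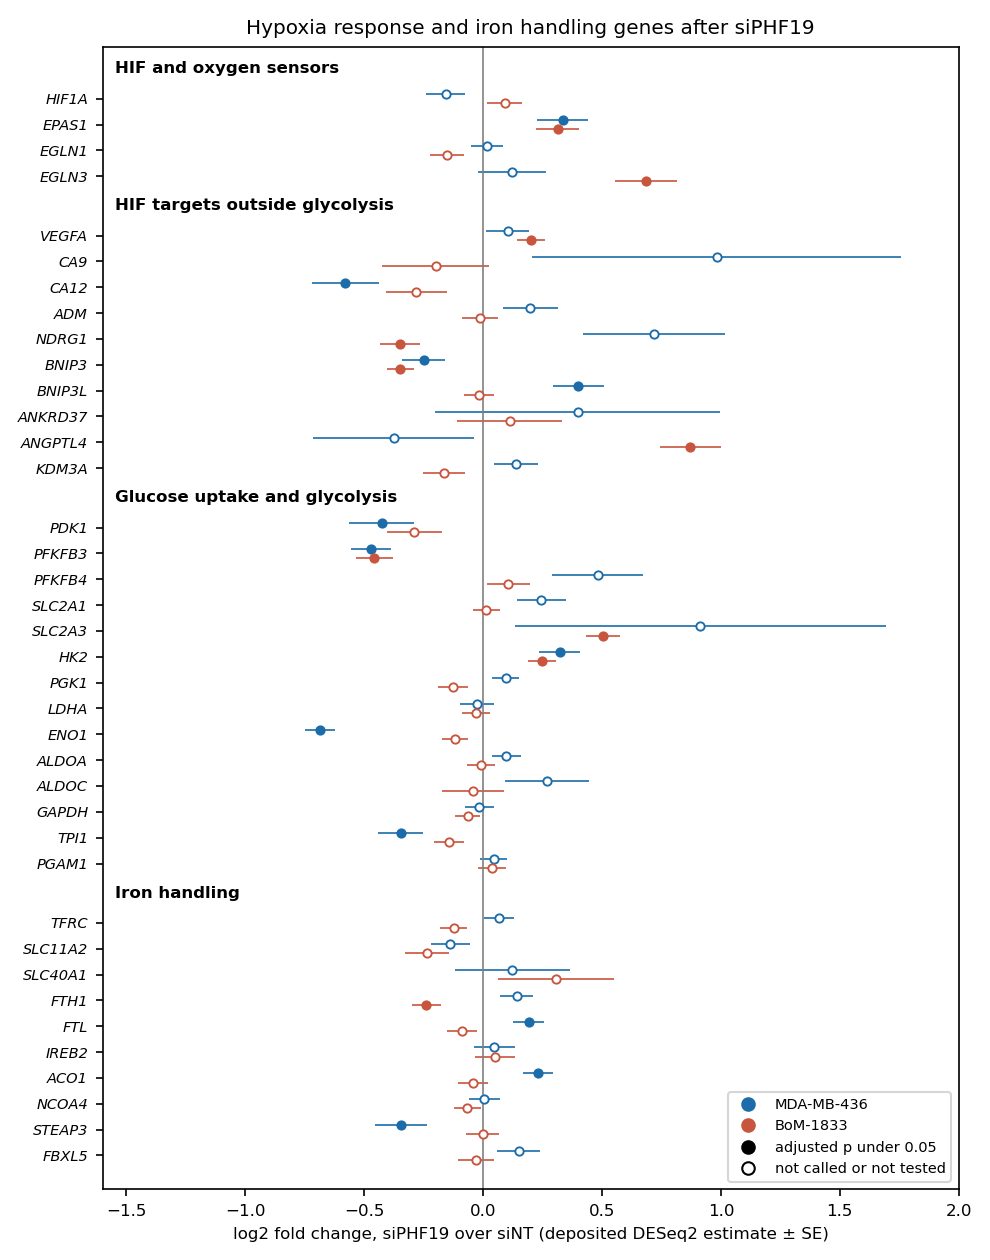
Log2 fold change of siPHF19 over siNT for the 38 members, grouped by role, in MDA-MB-436 (blue) and BoM-1833 (red); bars are ± 1 SE from the deposited DESeq2 tables and filled points have an adjusted p under 0.05. Filled points lie on both sides of 0 in both lines, and EPAS1, HK2, BNIP3 and PFKFB3 are filled in both.

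Among the HIF subunits and sensors, EPAS1 rose in both lines and EGLN3 rose in BoM-1833, while HIF1A and EGLN1 passed the test in neither line. EPAS1 (chr2:46293667-46386703, GRCh38, plus strand) had 3177, 3963 and 4371 normalized counts in the MDA-MB-436 siNT libraries and 4854, 4683 and 4973 after siPHF19. In BoM-1833 the EPAS1 values were 1143, 1321 and 1467 after siNT and 1708, 1589 and 1584 after siPHF19. All siPHF19 libraries lay above all siNT libraries in both lines. The deposited fold changes of EPAS1 were 0.33 (SE 0.11) in MDA-MB-436, with adjusted p = 0.0105, and 0.31 (SE 0.09) in BoM-1833, with adjusted p = 0.00743. The call was lost in MDA-MB-436 without siPHF19 replicate 1 (adjusted p = 0.0541) or 3 (0.073), and in BoM-1833 without siPHF19 replicate 1 (0.111). HIF1A, the other alpha subunit gene, had 5995, 6814 and 7249.7 normalized counts after siNT and 6076, 6079 and 5818 after siPHF19 in MDA-MB-436, and 9669, 11931 and 11529.9 against 11968, 11491 and 11809 in BoM-1833. The HIF1A groups overlapped in both lines, with deposited fold changes of -0.16 (95% interval -0.32 to -0.00, adjusted p = 0.153) and 0.09 (-0.05 to 0.23, adjusted p = 0.543). Without MDA-MB-436 siNT replicate 1, the lowest of its group, HIF1A was lower by -0.23 with an adjusted p of 0.000291.

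EGLN3 (chr14:33924231-34462774, minus strand), a prolyl hydroxylase that is itself a HIF target and so acts in feedback, had 268, 234 and 299.6 normalized counts after siNT and 461, 434 and 393 after siPHF19 in BoM-1833. These groups were well apart, and EGLN3 rose to 161% of its siNT mean (deposited log2 fold change 0.68, SE 0.13, adjusted p = 5.09e-06). In MDA-MB-436 EGLN3 had 209.6, 198 and 196 against 230.0, 219 and 207, with overlapping groups and a deposited fold change of 0.12 (adjusted p = 0.6). The difference between the lines for EGLN3 was -0.56 (SE 0.19, adjusted p = 0.0608) and did not pass, although it did with edgeR's interaction term (adjusted p = 0.0365) and without BoM-1833 siNT replicate 3 (-0.65, adjusted p = 0.0419). EGLN1, the main prolyl hydroxylase of most cells, stood at 101% of its siNT mean in MDA-MB-436 and at 90% in BoM-1833, neither past the threshold.

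Since HIF binds a short core on DNA, ACGTG or GCGTG, the RefSeq promoter windows (GRCh38.p14, 250 bases before to 50 after each start site) were searched for these letters on both strands. The palindrome CACGTG counts on both. Upstream parts are shown for the 4 genes that changed in both lines and for 3 genes that the text turns on below, on the strand of the gene, with matches of either strand in capitals. The BNIP3 window carried 6 matches and the EPAS1 window 1. HK2 had up to 6 in a window, PFKFB3 and ENO1 up to 2, and CA9 and ANGPTL4 had 1. The short stretches of HK2 and ENO1 thus show only part of their matches.
BNIP3, chr10:131981924-131982173, minus strand: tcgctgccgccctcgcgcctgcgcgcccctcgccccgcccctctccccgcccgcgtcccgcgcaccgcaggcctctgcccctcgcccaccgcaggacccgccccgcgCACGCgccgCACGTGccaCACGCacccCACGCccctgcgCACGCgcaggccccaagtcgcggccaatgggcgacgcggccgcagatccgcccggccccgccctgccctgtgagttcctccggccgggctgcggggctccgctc
EPAS1, chr2:46297157-46297406, plus strand: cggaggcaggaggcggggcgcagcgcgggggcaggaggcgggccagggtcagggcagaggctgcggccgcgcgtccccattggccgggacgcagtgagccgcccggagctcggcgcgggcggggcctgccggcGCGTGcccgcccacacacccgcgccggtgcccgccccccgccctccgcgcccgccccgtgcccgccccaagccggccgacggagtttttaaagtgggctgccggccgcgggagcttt
HK2, first start, chr2:74833877-74833936, plus strand: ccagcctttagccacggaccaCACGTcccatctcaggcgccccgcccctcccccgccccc
HK2, second start, chr2:74834949-74835008, plus strand: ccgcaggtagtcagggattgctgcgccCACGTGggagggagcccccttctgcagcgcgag
PFKFB3, first start, chr10:6144726-6144785, plus strand: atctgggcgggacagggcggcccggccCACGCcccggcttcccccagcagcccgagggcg
PFKFB3, second start, chr10:6202797-6202856, plus strand: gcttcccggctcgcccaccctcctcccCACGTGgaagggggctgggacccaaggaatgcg
ENO1, chr1:8878820-8878879, minus strand: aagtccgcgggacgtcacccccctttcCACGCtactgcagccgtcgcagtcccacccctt
CA9, chr9:35673883-35673942, plus strand: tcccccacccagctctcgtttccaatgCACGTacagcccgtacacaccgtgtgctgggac
ANGPTL4, chr19:8363905-8363964, plus strand: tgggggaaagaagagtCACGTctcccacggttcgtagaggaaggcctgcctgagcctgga

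A window was found for 33 of the 38 members, with 47 windows in all, since some genes have several starts. Either core was present in 36 of the 47 windows, or 76.6%, against 48.4% of all 35116 windows, and ACGTG alone in 42.6% against 21.4%. By gene, 28 of the 33 had a match in at least 1 window. This share cannot be set against the 48.4% of windows, since a gene with several starts has more windows in which to match. Among those with a window, 5 of 6 members that rose in at least 1 line, 6 of 7 that fell and 17 of 20 that changed in neither had a match. The members without a window, VEGFA, NDRG1, BNIP3L, SLC2A3 and FTH1, all changed in at least 1 line. The shares for members that rose or fell therefore leave these genes out. A match is a description of the letters and not a binding site, and these libraries hold no measure of HIF protein or of its binding.

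The 10 HIF targets outside glycolysis moved in both directions. In MDA-MB-436, 1 rose (BNIP3L) and 2 fell (CA12 and BNIP3); in BoM-1833, 2 rose (ANGPTL4 and VEGFA) and 2 fell (BNIP3 and NDRG1). BNIP3 and BNIP3L encode related mitochondrial receptors of mitophagy, and in MDA-MB-436 they went opposite ways. BNIP3 (chr10:131966455-131982013, minus strand) had 3221, 3071 and 2936 normalized counts after siNT and 2373, 2902 and 2481 after siPHF19 in MDA-MB-436. In BoM-1833 it had 5122, 5178 and 5178 against 4196, 4041 and 3914. BNIP3 was lower in every siPHF19 library of both lines, at 84.1% and 78.5% of its siNT mean. The deposited fold changes were -0.25 (SE 0.09) in MDA-MB-436, with adjusted p = 0.0292, and -0.35 (SE 0.06) in BoM-1833, with adjusted p = 7.53e-08. The MDA-MB-436 call for BNIP3 was lost without siNT replicate 2 (adjusted p = 0.132), siPHF19 replicate 1 (0.255) or siPHF19 replicate 3 (0.182), and with edgeR's upper-quartile scaling (0.051). GENCODE v29 lists 39 pseudogenes named after BNIP3, of which 0 had a gene row here under these names. How reads that match both were assigned is not given in the sources used here.

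BNIP3L had 797, 903 and 837 normalized counts after siNT and 1115, 1247 and 986 after siPHF19 in MDA-MB-436, without overlap. It rose there by 0.40 (SE 0.11, adjusted p = 0.00163 in the deposited table), a call lost without siPHF19 replicate 2 (adjusted p = 0.0734). In BoM-1833 BNIP3L overlapped between groups, with 3947, 4257 and 4248 against 4185, 4193 and 3927, and a deposited fold change of -0.02 (95% interval -0.14 to 0.10). CA12 (chr15:63321378-63382161, minus strand), a membrane carbonic anhydrase that takes part in pH control, had 883, 1133 and 1372 normalized counts after siNT and 725, 819 and 719 after siPHF19 in MDA-MB-436. It fell there to 66.8% of its siNT mean (deposited log2 fold change -0.58, SE 0.14, adjusted p = 0.000458). In BoM-1833, where CA12 was at 322, 353 and 393 against 303, 272 and 303, the groups also did not overlap but the gene did not pass (deposited log2 fold change -0.28, adjusted p = 0.165).

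NDRG1, a stress-induced gene that hypoxia and iron chelation both raise in many cells, had 1085, 1253 and 1051 normalized counts after siNT and 1447, 2600.0 and 1524 after siPHF19 in MDA-MB-436. In BoM-1833 it had 17239.8, 15531 and 19475 against 15263, 13411 and 12291. The siPHF19 libraries of NDRG1 were thus all above siNT in MDA-MB-436 and all below it in BoM-1833. The deposited test called the BoM-1833 fall (-0.35, SE 0.09, adjusted p = 0.000848) but not the MDA-MB-436 value (0.72, SE 0.30, adjusted p = 0.0684). Without siPHF19 replicate 2, the highest library, the MDA-MB-436 value of NDRG1 was 0.39 and passed (adjusted p = 0.0109). It also passed without siPHF19 replicate 1 (0.87, adjusted p = 1.66e-05) and with edgeR (adjusted p = 0.0216). The BoM-1833 call was lost without siNT replicate 1 (adjusted p = 0.146).

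ANGPTL4 (chr19:8363289-8374373, plus strand), a secreted inhibitor of lipoprotein lipase, was the member with the largest rise in BoM-1833. It had 291, 229 and 296 normalized counts after siNT and 514, 527 and 450.5 after siPHF19, or 183% of the siNT mean (deposited log2 fold change 0.87, SE 0.13, adjusted p = 1.14e-09). In MDA-MB-436 it was low, at 61.1, 54.3 and 45.2 against 41.4, 57.2 and 24.3, with overlapping groups and a deposited fold change of -0.38 (SE 0.34, adjusted p = 0.472). VEGFA (chr6:43770184-43786487, plus strand), the main growth factor for blood vessels, had 6519, 6976 and 7162 normalized counts after siNT and 8228, 7731 and 7771 after siPHF19 in BoM-1833. It rose there by 0.20 (SE 0.06, adjusted p = 0.0104 in the deposited table). That call was lost without siPHF19 replicate 1 (adjusted p = 0.155), 2 (0.062) or 3 (0.0668). In MDA-MB-436 VEGFA had 916, 1013 and 1054 against 1034, 1126 and 1041, which overlapped (deposited log2 fold change 0.10, 95% interval -0.07 to 0.28).

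CA9, the carbonic anhydrase most used as a marker of hypoxia, passed in neither line. It had 42.6, 72.9 and 57.5 normalized counts after siNT and 49.1, 239 and 52.8 after siPHF19 in MDA-MB-436, so that a single library, siPHF19 replicate 2, was far above the other 5. The deposited fold change of 0.98 (SE 0.78, adjusted p = 0.402) became -0.19 without that library. In BoM-1833 CA9 had 119.9, 93.1 and 142 against 127, 97.9 and 82.9, with overlapping groups. The remaining targets, the vasodilator peptide gene ADM, the histone demethylase gene KDM3A and ANKRD37, passed in neither line, with fold changes between 0.14 and 0.40 in MDA-MB-436 and between -0.16 and 0.11 in BoM-1833.

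Genes of glucose uptake and glycolysis also split. In MDA-MB-436, 1 of 13 tested rose (HK2) and 4 fell (PFKFB3, ENO1, TPI1 and PDK1). In BoM-1833, 2 of 14 rose (HK2 and SLC2A3) and 1 fell (PFKFB3). HK2 (chr2:74833981-74893359, plus strand), the hexokinase that makes glucose 6-phosphate in many tumours, had 1339, 1398 and 1376 normalized counts after siNT and 1651, 1890.1 and 1596 after siPHF19 in MDA-MB-436. In BoM-1833 it had 3325, 3396 and 3569 against 4099, 4109 and 4015. HK2 was higher in every siPHF19 library of both lines, at 125% and 119% of its siNT mean. The deposited fold changes were 0.32 (SE 0.09) in MDA-MB-436, with adjusted p = 0.00222, and 0.25 (SE 0.06) in BoM-1833, with adjusted p = 0.000643. The MDA-MB-436 call for HK2 was lost without siPHF19 replicate 2 (0.24, adjusted p = 0.104).

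PFKFB3 (chr10:6144934-6254644, plus strand) makes fructose 2,6-bisphosphate, the activator of phosphofructokinase. It had 1198, 1262 and 1295 normalized counts after siNT and 865, 958 and 884 after siPHF19 in MDA-MB-436, and 2247, 2079 and 2456 against 1727, 1622 and 1582 in BoM-1833. PFKFB3 fell to 72.1% and 72.7% of its siNT mean, by nearly the same amount in both lines. The deposited fold changes were -0.47 (SE 0.08) in MDA-MB-436, with adjusted p = 6.93e-07, and -0.46 (SE 0.08) in BoM-1833, with adjusted p = 2.38e-07, and their difference was -0.01 (SE 0.12). Its paralog PFKFB4 had 117, 166 and 149 against 208, 232 and 164 in MDA-MB-436, a deposited fold change of 0.48 that missed the threshold (adjusted p = 0.0542) but passed without siPHF19 replicate 3 (0.61, adjusted p = 0.0355) and with edgeR without its filter on low counts (adjusted p = 0.0235). In BoM-1833 the PFKFB4 value was 0.11 (adjusted p = 0.578).

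**Figure D2:**
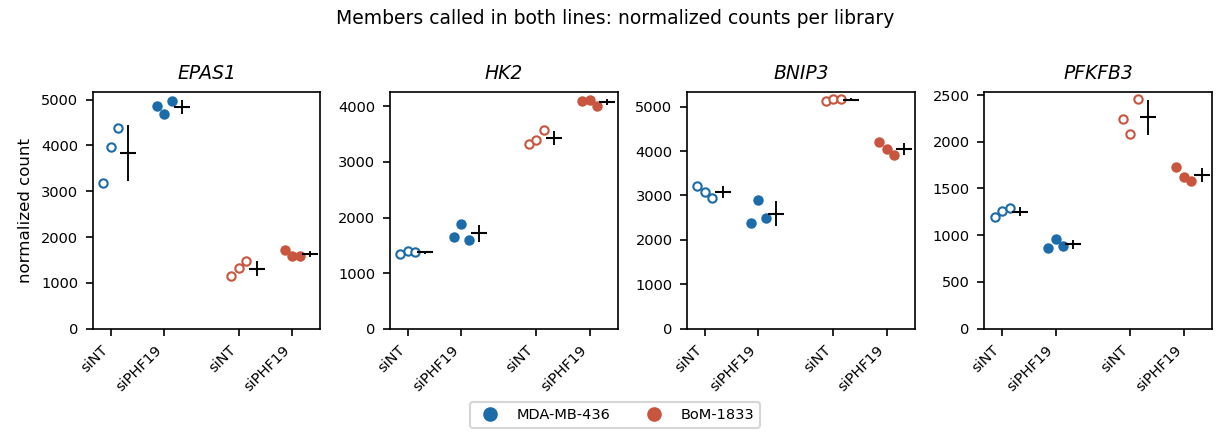
Normalized counts per library of the 4 members that changed in both lines, siNT as open and siPHF19 as filled points, MDA-MB-436 in blue and BoM-1833 in red; black crosses are the mean ± SD of 3 libraries. EPAS1 and HK2 are higher and BNIP3 and PFKFB3 lower in all siPHF19 libraries of both lines.

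ENO1 (chr1:8861000-8879250, minus strand), enolase 1, had the smallest adjusted p of any member. It had 38209.6, 35899 and 35489 normalized counts after siNT and 22355, 23657 and 22074 after siPHF19 in MDA-MB-436, a fall to 62.1% (deposited log2 fold change -0.69, SE 0.06, adjusted p = 3.04e-26). In BoM-1833 ENO1 had 75743, 69669 and 74811 against 67759.5, 69915 and 65164, with overlapping groups and a deposited fold change of -0.12 (SE 0.06, 95% interval -0.23 to -0.01, adjusted p = 0.175). TPI1 (chr12:6867119-6870948, plus strand), triose phosphate isomerase, had 26393, 23442 and 20335 normalized counts after siNT and 17391, 19364 and 18437 after siPHF19 in MDA-MB-436. It fell to 78.7% there (deposited log2 fold change -0.35, SE 0.09, adjusted p = 0.00234) and was at 90.6% in BoM-1833 without passing (-0.14, adjusted p = 0.15). PDK1 (chr2:172555373-172608669, plus strand), the kinase that restrains pyruvate dehydrogenase, had 606, 659 and 636 against 454, 568 and 389 in MDA-MB-436. It fell there by 0.43 on the log2 scale (SE 0.14, adjusted p = 0.0113 in the deposited table), a call lost without siNT replicate 2 (adjusted p = 0.0932), siPHF19 replicate 1 (0.0816) or siPHF19 replicate 3 (0.135). In BoM-1833 PDK1 stood at 81.8% of its siNT mean, with groups that did not overlap and a deposited fold change of -0.29 (adjusted p = 0.0951), which passed without siNT replicate 1 (adjusted p = 0.0422) and with edgeR without its filter (adjusted p = 0.0442).

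The glucose transporter genes differed in level between lines. SLC2A3 (chr12:7919230-7936275, minus strand), which encodes GLUT3, had 1729.7, 1839 and 1974 normalized counts after siNT and 2714, 2591 and 2547 after siPHF19 in BoM-1833, a rise to 142% (deposited log2 fold change 0.50, SE 0.07, adjusted p = 1.58e-10). In MDA-MB-436 SLC2A3 was nearly silent, at 4.37, 3.88 and 7.34 against 13.1, 12.4 and 3.17. SLC2A1, which encodes GLUT1, had 3351, 4023 and 4476 against 4603, 5034 and 4404 in MDA-MB-436, with overlapping groups (deposited log2 fold change 0.25, adjusted p = 0.075), and was at 101% in BoM-1833. Without MDA-MB-436 siNT replicate 3, the highest siNT library, the SLC2A1 value was 0.34 and passed (adjusted p = 0.0006). The other 6 enzyme genes, PGK1, LDHA, ALDOA, ALDOC, GAPDH and PGAM1, passed in neither line. Their fold changes lay between -0.03 and 0.27 in MDA-MB-436 and between -0.13 and 0.04 in BoM-1833. The steps of glycolysis thus did not move as a block: in MDA-MB-436 ENO1 was at 62.1% of its siNT mean and GAPDH at 98.9%. Reads of these enzymes can also match pseudogenes. GENCODE v29 lists 62 named after GAPDH, 13 after PGAM1, 6 after LDHA and 4 each after ENO1 and TPI1. Of these, the gene rows held 0 named after GAPDH, LDHA or ENO1, 1 after PGAM1 and 2 after TPI1. TPI1 overlaps SPSB2, ENO1 overlaps ENO1-AS1 and ANGPTL4 overlaps RAB11B-AS1 on the opposite strand, and whether strand was used in counting is not given in the sources used here.

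Matches to an iron-responsive element pattern were sought in the UTRs of the main transcript of each gene in GENCODE v29 (GRCh38). The pattern was a loop, CAGTG and any base after it, on a stem of 5 paired bases (G-U pairs allowed). Below the stem a C bulges out on the left side. An element that departs from this pattern or lies in another transcript would be missed. A gene without a match may therefore still carry an element. The 30 bases at each site are shown, because these elements tie the iron state of a cell to the ferritin and transferrin receptor mRNAs, with the 6 loop bases in capitals.
FTH1, 5′ UTR, chr11:61967573-61967602, minus strand: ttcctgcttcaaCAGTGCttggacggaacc
FTL, 5′ UTR, chr19:48965335-48965364, plus strand: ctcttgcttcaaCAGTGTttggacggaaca
SLC40A1, 5′ UTR, chr2:189580660-189580689, minus strand: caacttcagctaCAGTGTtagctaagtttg
TFRC, 3′ UTR, chr3:196050978-196051007, minus strand: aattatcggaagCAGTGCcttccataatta
TFRC, 3′ UTR, chr3:196050574-196050603, minus strand: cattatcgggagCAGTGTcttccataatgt
TFRC, 3′ UTR, chr3:196050509-196050538, minus strand: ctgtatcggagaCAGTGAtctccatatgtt
TFRC, 3′ UTR, chr3:196050462-196050491, minus strand: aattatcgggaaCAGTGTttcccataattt
The pattern was present in 19 of 18375 5′ UTRs (0.103%) and in 115 of 18965 3′ UTRs (0.606%), and among the members also once in the 3′ UTR of PDK1. TFRC was the member with 4 matches.

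TFRC, whose mRNA is stabilized through these elements when iron is scarce, passed in neither line. It had 9894, 10085 and 10816 normalized counts after siNT and 11024, 10589.5 and 10647 after siPHF19 in MDA-MB-436, and 5559.8, 5682 and 5249.8 against 5058, 5053 and 5023 in BoM-1833. The groups overlapped in MDA-MB-436, whereas in BoM-1833 all siPHF19 libraries were below siNT. The deposited fold changes were 0.07 (95% interval -0.06 to 0.19, adjusted p = 0.491) and -0.12 (-0.24 to -0.01, adjusted p = 0.17). SLC40A1, the iron exporter ferroportin, was low in both lines, at 64.7 ± 9.75 normalized counts (SD, n = 3) after siNT in MDA-MB-436 and at 67.1 ± 11.7 after siNT in BoM-1833, and passed in neither. SLC11A2, which carries iron out of endosomes, was at 90.8% and 84.9% of its siNT mean, with groups that did not overlap in either line, and passed in neither (adjusted p = 0.25 and 0.0894 in the deposited tables). In BoM-1833 SLC11A2 passed with edgeR's TMM scaling (-0.24, adjusted p = 0.0429), with limma (adjusted p = 0.0465) and without siNT replicate 1 (-0.27, adjusted p = 0.0465). It did not pass with edgeR's upper-quartile scaling or with limma without its filter.

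Of the ferritin genes, which store iron, FTH1 fell in BoM-1833 and FTL rose in MDA-MB-436, and neither passed in the other line. FTH1 (chr11:61959718-61967660, minus strand), the heavy chain, had 59851, 57323 and 52336 normalized counts after siNT and 60255, 62964 and 63726 after siPHF19 in MDA-MB-436, and 20202, 17773 and 18572 against 15599, 16162 and 16174 in BoM-1833. The siPHF19 libraries were all above siNT in the former line and all below it in the latter. FTH1 fell in BoM-1833 (deposited log2 fold change -0.24, SE 0.06, adjusted p = 0.00132), while the MDA-MB-436 value of 0.14 (SE 0.07, adjusted p = 0.131) did not pass. Without MDA-MB-436 siNT replicate 1 the FTH1 value there was 0.19 and passed (adjusted p = 0.00262). FTL (chr19:48965301-48966878, plus strand), the light chain, had 49564, 47532 and 43922 after siNT and 53394, 52804 and 54845 after siPHF19 in MDA-MB-436. FTL rose there by 0.19 (SE 0.07, adjusted p = 0.019 in the deposited table), but this small change did not pass with edgeR's TMM scaling (adjusted p = 0.0514) or limma (0.0574), nor without siNT replicate 2 (0.125) or without siPHF19 replicate 1 (0.139), 2 (0.123) or 3 (0.187). The FTL rise did pass with edgeR's upper-quartile scaling and with edgeR without its filter on low counts. In BoM-1833 FTL had 25137, 21663 and 22165 against 21422, 21858 and 21624, which overlapped (deposited log2 fold change -0.09, adjusted p = 0.471). GENCODE v29 lists 25 pseudogenes named after FTH1 and 16 after FTL, of which 2 and 1 had a gene row under these names. FTH1 also overlaps BEST1 on the opposite strand. Both levels are thus uncertain.

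Of the regulators, ACO1 (chr9:32384603-32454769, plus strand), iron regulatory protein 1, had 3614, 3587 and 3548 normalized counts after siNT and 4277, 4024 and 4302 after siPHF19 in MDA-MB-436. ACO1 rose there to 117% (deposited log2 fold change 0.23, SE 0.06, adjusted p = 0.00245) and was at 97.1% in BoM-1833, with overlapping groups. The ACO1 call was lost without siNT replicate 2 (adjusted p = 0.0755), siPHF19 replicate 1 (0.0943) or siPHF19 replicate 3 (0.0949). STEAP3 (chr2:119223831-119265652, plus strand), the endosomal reductase that prepares iron for transport, had 951, 1124 and 1239 against 895, 822 and 891 in MDA-MB-436. It fell there to 78.7% (deposited log2 fold change -0.35, SE 0.11, adjusted p = 0.0097) and was at 99.8% in BoM-1833. The STEAP3 call was lost without siNT replicate 2 (adjusted p = 0.0857) or siPHF19 replicate 2 (0.113). IREB2, iron regulatory protein 2, FBXL5, which directs IREB2 to destruction, and NCOA4, the receptor that delivers ferritin for breakdown, passed in neither line. Their fold changes lay between 0.01 and 0.15 in MDA-MB-436 and between -0.07 and 0.05 in BoM-1833. In all, 2 of the 10 iron genes rose and 1 fell in MDA-MB-436, and 0 rose and 1 fell in BoM-1833.

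To ask whether the response differed between the lines, the fold changes were compared by a z test over the 12290 genes tested in both, with Benjamini-Hochberg adjustment. The difference passed for 6 of 37 members, against 4.89% of all genes. ENO1 had the smallest adjusted p, with a change in MDA-MB-436 minus BoM-1833 of -0.57 (SE 0.08, adjusted p = 3.29e-09). FTH1 followed with 0.38 (SE 0.09, adjusted p = 0.00171), then ANGPTL4 with -1.25 (SE 0.36, adjusted p = 0.0171), NDRG1 with 1.07 (SE 0.31, adjusted p = 0.0181), BNIP3L with 0.42 (SE 0.12, adjusted p = 0.0201) and FTL with 0.28 (SE 0.09, adjusted p = 0.0439). The difference for NDRG1 was lost without any 1 of the MDA-MB-436 siNT libraries (adjusted p = 0.128, 0.0804 and 0.0806), and the difference for BNIP3L was lost without siPHF19 replicate 1 (0.105) or 2 (0.242) of MDA-MB-436 and without siNT replicate 2 (0.0568) or siPHF19 replicate 3 (0.0753) of BoM-1833. The difference for ANGPTL4 was lost without siNT replicate 1 (0.105) or 2 (0.118) or siPHF19 replicate 1 (0.0941) or 3 (0.155) of MDA-MB-436, and without siNT replicate 2 of BoM-1833 (0.053). That for FTL was lost in most of the alternatives listed in the closing section. Besides EGLN3, the differences for HIF1A, SLC2A1, PGK1, TPI1, ACO1 and STEAP3 did not pass, but each did without 1 siNT library. The 4 members that changed in both lines, against 5.97% of the 12290 genes, did so in the same direction, and their differences were 0.02 for EPAS1, 0.07 for HK2, 0.10 for BNIP3 and -0.01 for PFKFB3, each with an adjusted p of 0.72 or above.

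**Figure D3:**
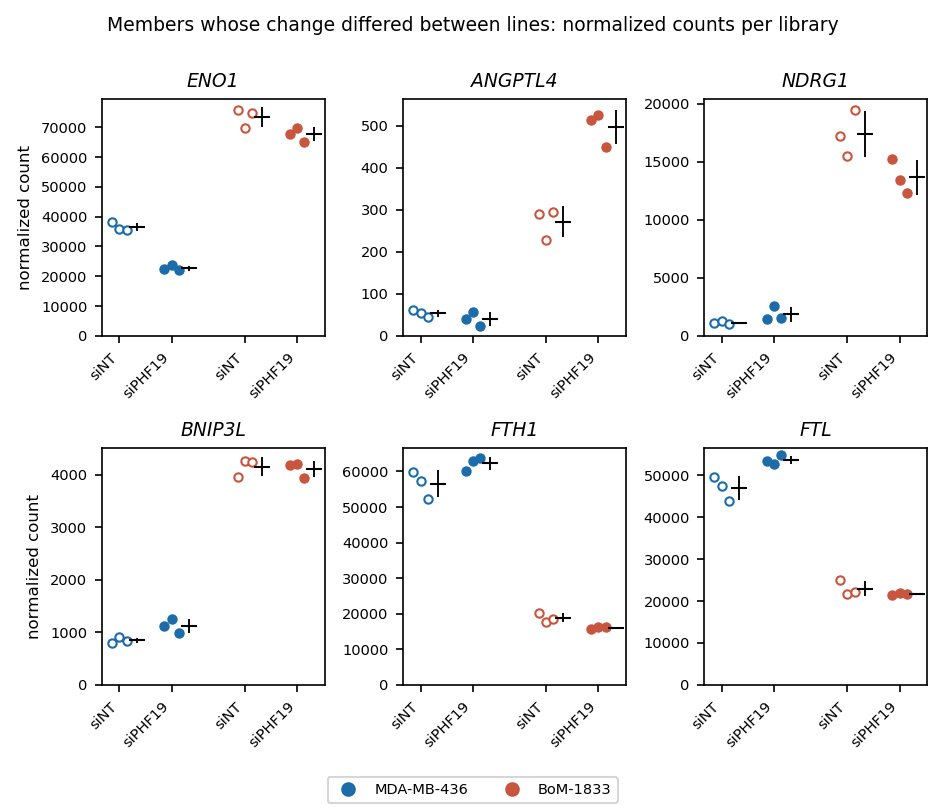
Normalized counts per library of the 6 members whose fold change differed between lines, siNT as open and siPHF19 as filled points, MDA-MB-436 in blue and BoM-1833 in red; black crosses are the mean ± SD of 3 libraries and each panel has its own axis from 0. NDRG1 and FTH1 are higher after siPHF19 in MDA-MB-436 and lower in BoM-1833, and ENO1 is lower mainly in MDA-MB-436.

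The hypoxia genes also varied among libraries of one group. In MDA-MB-436, siPHF19 replicate 2 was the highest of its 3 libraries for 22 of the 24 HIF targets and glycolysis genes and the lowest for 0, whereas over all genes tested it was the highest for 30.3%. Its value divided by the mean of replicates 1 and 3 was above 1 for all 24, from 1.03 for ANKRD37 to 4.70 for CA9, with a median of 1.13. Beside CA9, the ratio was 1.75 for NDRG1, 1.74 for ANGPTL4, 1.49 for ALDOC and 1.35 for PDK1. Over all genes tested the median ratio was 0.998, and for the 10 iron genes it was 0.982, with replicate 2 the highest for 1 of 10. Among 50 other known HIF targets this library was the highest for 27. Its depth of 22288977 reads in genes was the largest of the 3, against 16915866 and 17534249, and the part of depth in this pattern was not tested.

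In BoM-1833 the tilt within groups lay in other libraries. There siNT replicate 3 was the highest of its group for 15 of the 24 genes, against 33.7% of all genes, and siPHF19 replicate 3 was the highest for 0 and the lowest for 17, against 31.3% and 32.7% of all genes. For NDRG1 and PGK1 in BoM-1833 these were the highest siNT library (19475 and 17321) and the lowest siPHF19 library (12291 and 14085).

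**Figure D4:**
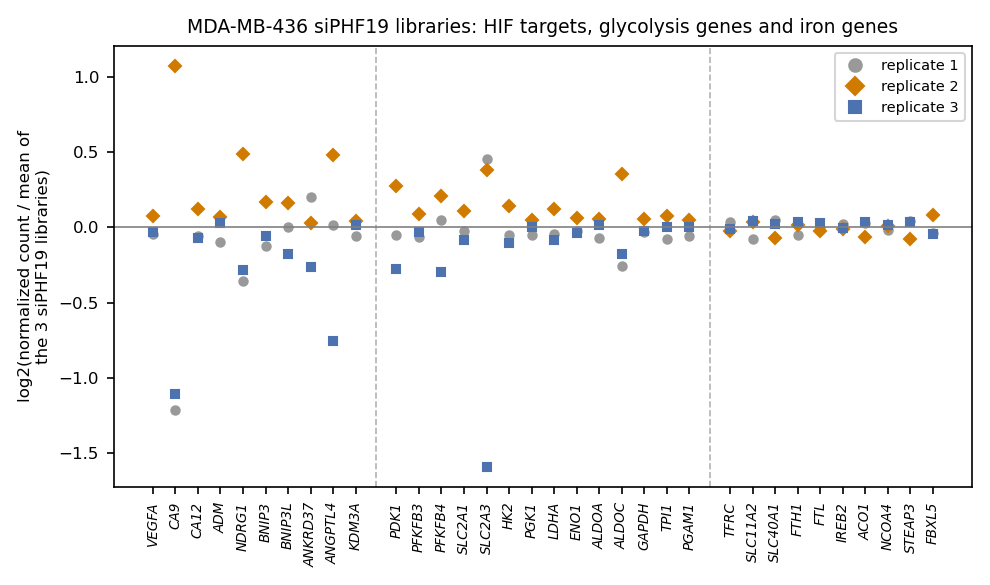
Log2 of each MDA-MB-436 siPHF19 library's normalized count over the mean of the 3 libraries, for HIF targets, glycolysis genes and iron genes from left to right, separated by dashed lines. Replicate 2 (orange diamonds) lies above 0 for all 24 genes of the first 2 sections but near 0 for the iron genes.

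Levels can be compared between genes only per length, so levels were also expressed as RPKM, reads per kilobase of the main transcript scaled to the reads in genes of each library. In MDA-MB-436 after siNT the order was led by FTL at 2851 ± 138, FTH1 at 2448 ± 136 and GAPDH at 2081 ± 111 (SD, n = 3), followed by TPI1 at 1011 ± 116 and ENO1 at 829.7 ± 19.3. In BoM-1833 GAPDH led at 2036 ± 65, followed by ENO1 at 1869 ± 63.4, FTL at 1563 ± 116, LDHA at 1059 ± 57 and FTH1 at 916 ± 52.1. The ferritin levels carry the uncertainty from pseudogenes given above. The lowest levels were SLC2A3 at 0.0708, ANKRD37 at 0.404 and SLC40A1 at 1.00 in MDA-MB-436, and SLC40A1 at 1.16, PDK1 at 1.95 and CA12 at 3.32 in BoM-1833. These places depend on the transcript chosen, which for PDK1 was 14193 bases long. By normalized counts after siNT in BoM-1833, PDK1 at 463 was above CA9 at 118 and ANKRD37 at 102. Of the alpha subunits, HIF1A was at 90.1 ± 9.96 and EPAS1 at 39.6 ± 6.85 in MDA-MB-436, and at 167 ± 19.6 and 15.2 ± 1.9 in BoM-1833. NDRG1 was at 16 in MDA-MB-436 and at 277 in BoM-1833. The 2 tables were normalized separately, so levels across lines are set side by side without a test.

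Counts for other genes of the same pathways are read against the 22.1% of all genes called in MDA-MB-436 and the 10.9% in the other line. Of 18 other HIF pathway regulators, 17 were tested in each line; 3 rose and 2 fell in MDA-MB-436, and 1 rose and 1 fell in BoM-1833, or 29.4% and 11.8% called. ELOC, listed under its older symbol TCEB1, which encodes elongin C of the VHL ubiquitin ligase that destroys HIF alpha subunits, fell in both lines (deposited log2 fold change -0.85, adjusted p = 9.91e-15, and -0.41, adjusted p = 0.000349). CUL2, the scaffold of the same ligase, fell in MDA-MB-436 (-0.35, adjusted p = 2.08e-05). SIAH2, a ubiquitin ligase that targets EGLN proteins, rose by 0.63 (adjusted p = 9.5e-05) and 0.39 (adjusted p = 0.0119) in the deposited tables, the latter a call lost when any library of BoM-1833 but siNT replicate 1 was left out (adjusted p up to 0.119). Of 50 other HIF targets, 9 of 48 tested rose and 5 fell in MDA-MB-436, and 3 of 47 rose and 4 fell in BoM-1833, or 29.2% and 14.9% called. In MDA-MB-436 these were led by STC2 (-0.55), PDGFB (1.26) and the lactate exporter gene SLC16A3 (-0.62), and those of BoM-1833 included TGFA (0.63) and LOXL2 (0.28).

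Among 42 other iron genes, 4 of 36 tested rose and 4 fell in MDA-MB-436, and 2 of 34 rose and 4 fell in BoM-1833, or 22.2% and 17.6% called. SLC39A14, which encodes ZIP14, a transporter of zinc, manganese and iron that does not depend on transferrin, fell more than any of the 10 members of iron handling in either line. Its values were 3121, 3806 and 3715 normalized counts after siNT and 1328, 1486 and 1303 after siPHF19 in MDA-MB-436, and 3649.9, 3581 and 3594 against 1892, 1739 and 1833.15 in BoM-1833. These groups were far apart in both lines, and the deposited fold changes were -1.37 (SE 0.10) in MDA-MB-436, with adjusted p = 4.11e-43, and -0.99 (SE 0.06) in BoM-1833, with adjusted p = 1.15e-50. Its paralog SLC39A8 rose in MDA-MB-436 (0.70, adjusted p = 3.17e-17), and SLC25A37, the mitochondrial iron importer mitoferrin 1, fell in both lines (-0.47 and -0.22), but its BoM-1833 call was lost when any library there but siNT replicate 1 was left out (adjusted p up to 0.173). STEAP1 fell in BoM-1833 (-0.65, adjusted p = 7.46e-06 in the deposited table).

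Of 25 V-ATPase subunit genes, ATP6V1E1 fell in both lines, to 11.9% of its siNT mean in MDA-MB-436 and to 20.2% in the other line (deposited log2 fold changes -3.07 and -2.31). It had 1877, 1609 and 1563 normalized counts after siNT and 201, 214 and 185 after siPHF19 in the former line, and 2163, 1984 and 1918 against 415, 435 and 375 in the latter. In MDA-MB-436, 9 of the 21 tested rose, among them ATP6V1A (0.50) and ATP6V1G1 (0.42), and ATP6V1E1 was the 1 that fell, or 47.6% called. In BoM-1833, 3 of 22 rose, including ATP6AP1 (0.35) and ATP6V0B (0.28), and 2 fell, ATP6V1E1 and ATP6V0D2, the latter named after its value was seen, or 22.7% called. The ATP6V0B call was lost when any BoM-1833 library but siNT replicate 1 was left out (adjusted p up to 0.129). ATP6V1E1 and PHF19 were both low in all siPHF19 libraries, so that effects of their loss on the HIF targets and iron genes cannot be told apart.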

How the data were processed

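Polyadenylated RNA from 12 libraries was sequenced after a stranded mRNA preparation, per the labels' protocols. The submitters' processing notes name STAR, RSEM 1.3.1, DESeq2 1.46.0 and hg38; the annotation and the use of strand are not given in the sources used here. Per the file headers, each deposited table holds a signal per library (normalized counts), unshrunken log2 fold changes with SE, a Wald score, and p-values with adjusted p-values. All library values were whole multiples of 1 step per library (100% within 0.01), so whole reads were recovered, and DESeq2 1.42.0 (R 4.3.3) run on them gave the deposited calls (3143 and 1411). Fold changes of the lines were compared by a z test. Alternatives used edgeR 4.0.16, limma 3.58.1 (log2 of the value plus 1 or 8, mean of at least 10) and each library left out; scripts were tested on simulated data. Gene names that looked like dates numbered 28 and repeated names 2 in each of the tables. The members and gene lists were chosen with earlier results of these data known. Members that changed in a line are described in full, the others by ranges together with HIF1A, EPAS1, VEGFA, CA9, TFRC, FTH1 and FTL, and from each other list up to 3 genes with the smallest adjusted p per line, of which a few are not reported here.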

Additional observations from a re-analysis of the deposited data

Results flagged for a closer look

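For 6 members the fold change in MDA-MB-436 minus that in BoM-1833 passed a z test with Benjamini-Hochberg adjustment over 12290 genes (log2 scale). The difference was -0.57 for ENO1 (adjusted p = 3.29e-09), which was lower in 3 of 3 MDA-MB-436 siPHF19 libraries than in any siNT library. It was 0.38 for FTH1 (adjusted p = 0.00171), whose siPHF19 libraries were all above siNT in MDA-MB-436 and all below it in BoM-1833. NDRG1 showed that same opposition, with a difference of 1.07 (adjusted p = 0.0181). The difference was -1.25 for ANGPTL4 (adjusted p = 0.0171), 0.42 for BNIP3L (adjusted p = 0.0201) and 0.28 for FTL (adjusted p = 0.0439).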

How the results depend on the processing

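No member called in a line reversed its direction under any alternative run. Of the 12 members called in MDA-MB-436, 4 passed under every alternative (CA12, PFKFB3, ENO1 and TPI1), and 8 were lost in at least 1; of the 25 not called, 5 passed in at least 1. Of the 10 called in BoM-1833, 6 passed under every alternative (EGLN3, BNIP3, ANGPTL4, PFKFB3, SLC2A3 and FTH1), and 4 were lost in at least 1; of the 28 not called, 2 passed in at least 1. Leaving out 1 library gave 7 (without siNT replicate 2) to 14 members called in MDA-MB-436, 8 to 11 in BoM-1833 and 3 to 7 that differed between lines, the lowest without MDA-MB-436 siNT replicate 2 or siPHF19 replicate 1. Over all genes, leaving out 1 library left from 1767 to 3801 calls for MDA-MB-436, with 746 to 2046 for BoM-1833. The highest counts, without siNT replicate 3 of MDA-MB-436 and without siNT replicate 1 of BoM-1833, exceeded the 3143 and 1411 of the full comparisons. The part of fewer libraries in these ranges was not tested. With other tools, scalings, pseudocounts and filters, 11 to 14 members were called in MDA-MB-436 (10 to 12 in BoM-1833), and edgeR's interaction term called 7 differences. A z test over all genes with a fold change called 5. The difference for ENO1 passed under every alternative, whereas that for FTL was lost in 12, with an adjusted p of up to 0.371.

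Replicate numbers did not pair the libraries: deviations of same-numbered siNT and siPHF19 libraries correlated at -0.233, 0.0387 and -0.269 across 10916 genes in MDA-MB-436 and at -0.307, -0.117 and -0.199 across 10670 genes in BoM-1833, and not every library correlated best with its own number. With the replicate number as a block, DESeq2 called 9 members and 1610 genes in MDA-MB-436, 7 members and 610 genes in BoM-1833, and 2 members that differed between lines. Under the block, NDRG1 was gained and FTL, BNIP3, ACO1 and STEAP3 were lost in MDA-MB-436, EPAS1, VEGFA and HK2 (adjusted p = 0.0525) were lost in BoM-1833, and the line differences for FTH1 (adjusted p = 0.0826), ANGPTL4, BNIP3L and FTL were lost. The cause of these changes was not tested.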
